A study of Mus musculus with 6 samples.

Results

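The CXC chemokine system was read in subcutaneous GLMT1 tumours through 10 genes chosen by name: the ligands Cxcl12, Cxcl1, Cxcl2, Cxcl5, Cxcl13, Cxcl14, Cxcl16 and Cxcl17 and the receptors Cxcr4 and Ackr3. All 17 probe sets whose single gene symbol in the platform annotation is one of these names were used, out of 45037 probe sets tested and 18193 genes with a single symbol. GLMT1 is a single cell line, named in the labels for a lung metastasis in a GRS/A mouse, and it was inoculated under the back skin of every host. The hosts were male mice on the GRS/A background, 10 weeks old per the sample labels (the series' design text gives a younger age). In the WT group (n = 3) tenascin-C was intact, and in the TNKO group (n = 3) the host, GRS/A-TgH(TnC), was deficient in tenascin-C, a glycoprotein of the extracellular matrix. The labels describe the tumour cells as GLMT1 in both groups and name no change of the Tnc gene in them, so the tumour cells themselves are not a tenascin-C knockout. Each sample is a biological replicate profiled on a 1-colour Affymetrix array. Its title reads GLMT1 tumour cell excised from the host and names no separation of cells, so it is taken here as a whole tumour.

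CXC chemokines are small secreted proteins, most of them bound by G protein-coupled receptors on leukocytes, endothelium or tumour cells. CXCL12, made by stromal fibroblasts and endothelium, signals through CXCR4 and is taken up by the scavenging receptor ACKR3. CXCL1, CXCL2 and CXCL5 attract neutrophils through CXCR2 and are induced by NF-kappaB, while CXCL13 attracts B cells through CXCR5. The samples are taken as whole tumours, so fewer cells of a type and less RNA per cell cannot be told apart in any result.

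The deposited values, taken as log2, hardly differed from tumour to tumour: the median span from lowest to highest of the 6 was 5.46e-06 log2 units, and 249 of 45037 probe sets (0.553%) spanned more than 0.01. A difference on this scale cannot be read as a fold. Each is given as deposited and divided by the spread of its probe set among tumours of 1 host type (residual SD). Array medians lay between 6.5674 and 6.5676 in 5 tumours and at 6.5698 in TNKO tumour 3, so that scaling the arrays to each other moved the median of all differences to -0.000538 (quantile normalization) or -0.000764 (array medians subtracted). Subtracting medians moves every difference by the same amount, so any positive difference smaller than that turns negative under it. The brighter of the Tnc probe sets stood at 9.02 ± 0.0243 in WT and 8.82 ± 0.0181 in TNKO hosts (SD, n = 3 each), with an adjusted p of 0.0537. Fibroblast genes were bright (Col1a2 at 13.67, Dcn at 12.79 in WT hosts), as was Krt8, a keratin of simple epithelia (11.45). The epithelial genes Krt19 (6.07) and Elf5 (5.96) lay below the median level of all probe sets, 6.57. Of the 8 epithelial markers 4 lay below that median, and the other 4 above it were Krt8, Krt18 (8.92), Cdh1 (7.48) and Epcam (7.04). Which cells gave these transcripts was not tested.

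With limma and Benjamini-Hochberg adjustment over all probe sets, 0 of the 17 CXC probe sets passed an adjusted p of 0.05, against 79 of all 45037 (0.175%). The smallest adjusted p among them was 0.0702, for a dim Cxcl14 probe set. An unadjusted p under 0.05 was reached by 6 of 17, where 20.3% of all probe sets reached it: 4 were lower in TNKO hosts (10.8% of all) and 2 higher (9.53% of all). All 17 lay above the median level. When limma tested only the 22518 probe sets above it, 5420 had an unadjusted p under 0.05, 6 of the 17 among them. The 6 became 3 without WT tumour 3 or TNKO tumour 2, 4 without WT tumour 1 or with quantile normalization, and 0 with array medians subtracted. With medians subtracted, limma's p for the brightest probe set of each gene followed the size of the difference alone. Unadjusted, it was 0.474 for Cxcl2 (-0.0181) and 0.969 for Cxcl12 (-0.000971). That fit did not weigh each difference against the probe set's own spread, so its 0 cannot be set beside the 6. The mean was lower in 13 of the 17 (45.6% of all) and higher in 4 (54.4% of all), but the split was 9 and 8 without TNKO tumour 2 and 10 and 7 without WT tumour 1. The groups stood apart in 8 of the 17, against 28% of all: the 3 TNKO tumours lay below the 3 WT tumours in 6, where 13.8% of all probe sets did so, and above in 2, where 14.2% did. The 6 were the 3 probe sets of Cxcl1 and those of Cxcl2, Cxcl5 and Ackr3. The 2 were the dim Cxcl14 probe set and Cxcl17. Read from the brightest probe set of each gene, 8 of the 10 genes had a lower mean in TNKO hosts, against 42.4% of all genes. The median difference was -0.69 residual SDs for the 10 genes and 0.28 for all genes. For a single value, 3 tumours against 3 cannot go below an exact two-sided permutation p of 0.1.

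**Figure D1:**
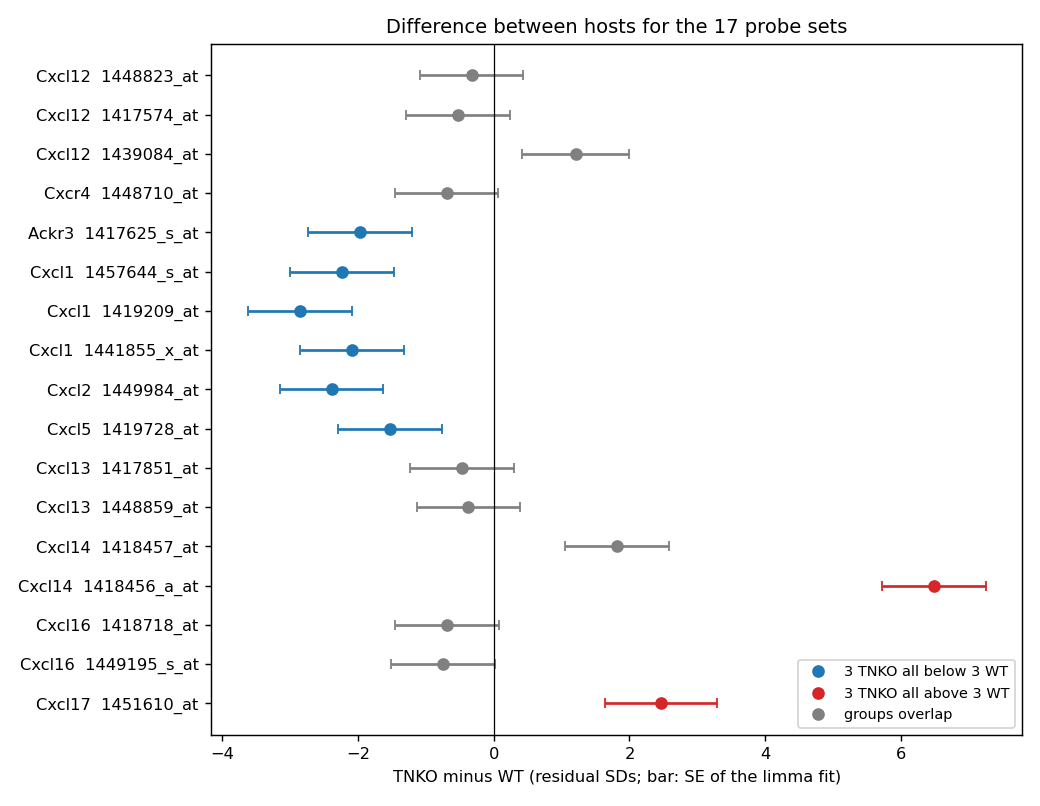
TNKO minus WT for the 17 probe sets, in residual SDs on the x axis, with the SE of the limma fit as bars; blue marks probe sets in which the 3 TNKO tumours lie below the 3 WT tumours, red those in which they lie above, grey those with overlapping groups. Cxcl1, Cxcl2, Cxcl5 and Ackr3 sit to the left, between -1.52 and -2.85, and a dim Cxcl14 probe set lies farthest right, at 6.48.

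Cxcl12 as deposited showed no difference between hosts that exceeded the spread between tumours. Its brightest probe set, 1448823_at, stood at 8.7313, 8.7306 and 8.7299 in WT tumours 1, 2 and 3 and at 8.7303, 8.7299 and 8.7310 in TNKO tumours 1, 2 and 3. Both extremes were WT tumours, number 1 at the top and number 3 at the bottom, so the WT group spanned all 3 TNKO tumours. The difference was -0.000207 (SE 0.000485, 95% interval -0.00149 to 0.00108, adjusted p = 0.86), or -0.33 residual SDs. With quantile normalization it was -0.00109, below the median of all differences there (unadjusted p = 0.0343, adjusted p = 0.588), and with medians subtracted -0.000971 (adjusted p = 0.99). The last p did not weigh the probe set's own spread. As deposited, its sign turned without WT tumour 1 (0.000149) or without TNKO tumour 2 (4.46e-05). The second Cxcl12 probe set, 1417574_at, differed by -2.14e-05 (adjusted p = 0.758) and again had WT tumour 1 highest. The third, 1439084_at, was close to the median level of the arrays at 6.57 and differed by 1.35e-06 (adjusted p = 0.459). Over the 6 arrays the brightest probe set correlated with the second at r = 0.69 and with the third at r = -0.73, so the 3 probe sets did not give a common pattern.

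Cxcr4, the signalling receptor of CXCL12, was measured by 1 probe set, 1448710_at, at 7.09 in each tumour. In millionths of a log2 unit from their common mean, WT tumours 1, 2 and 3 lay at -4.30, -2.10 and 16.7 and TNKO tumours at 5.46, -5.79 and -9.97. WT tumour 3 was the highest, TNKO tumour 1 came next, and the groups overlapped. The difference was -6.87e-06 (SE 7.58e-06, 95% interval -2.69e-05 to 1.32e-05, adjusted p = 0.672), or -0.69 residual SDs. Without WT tumour 3 it was -2.35e-07.

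Ackr3, which removes CXCL12 and does not signal through G proteins, stood at 9.88595, 9.88599 and 9.88613 in WT tumours and at 9.88590, 9.88589 and 9.88586 in TNKO tumours. WT tumour 3 stood well above all others, and the lowest WT tumour lay 5.18e-05 above the highest TNKO tumour. The difference was -0.00014 (SE 5.43e-05, adjusted p = 0.254), or -1.97 residual SDs, and it was -8.41e-05 without WT tumour 3. It stayed below 0 with quantile normalization (-0.000759) and with medians subtracted (-0.000904), each a little below the median of all differences under that scaling. Its probe set has the suffix _s_at, which in Affymetrix naming marks probes that may match more than 1 transcript. The platform's probes for the 5' end of mouse control transcripts were also lower in all 3 TNKO tumours in 4 of 5 cases, with differences down to -0.000402. Those for the 3' end had a lower mean in 4 of 5 cases, 2 of them with the groups apart, and differences from -4.45e-06 to 0.00107. Their part in the Ackr3 difference was not tested.

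**Figure D2:**
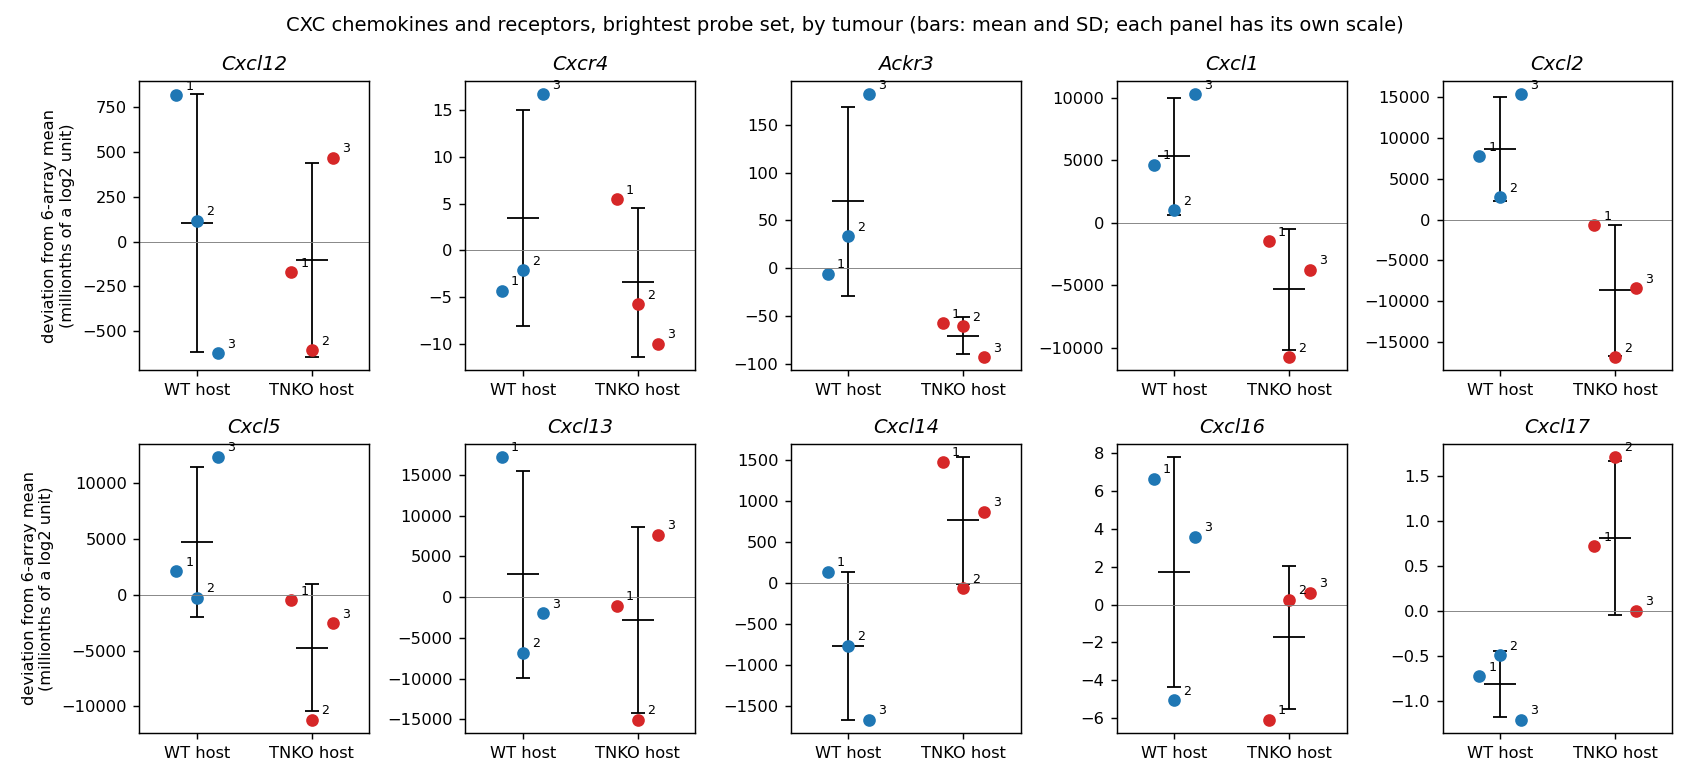
Deviation of each tumour from the 6-array mean, in millionths of a log2 unit, for the brightest probe set of each of the 10 genes; points are tumours with their replicate number, bars give mean and SD (n = 3), and each panel has its own scale. Cxcl1, Cxcl2, Cxcl5 and Ackr3 have all TNKO tumours below all WT tumours, Cxcl17 the reverse, and Cxcl12 and Cxcr4 overlap.

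Cxcl1, Cxcl2 and Cxcl5, the CXCR2 ligands that attract neutrophils, had all 3 TNKO tumours below the lowest WT tumour, by amounts that did not pass adjustment. The brightest Cxcl1 probe set, 1457644_s_at, read 9.578, 9.575 and 9.584 in WT tumours 1, 2 and 3 and 9.572, 9.563 and 9.570 in TNKO tumours 1, 2 and 3. WT tumour 3 was the highest and TNKO tumour 2 the lowest, and a gap of 0.00245 separated the groups. The difference was -0.0106 (SE 0.00363, adjusted p = 0.217), or -2.23 residual SDs. A dimmer Cxcl1 probe set, 1419209_at, had the largest difference in log2 units of the 17, -0.0247 (SE 0.00661, adjusted p = 0.159). It read 9.013, 9.005 and 9.024 in WT and 8.996, 8.980 and 8.992 in TNKO tumours. The last, 1441855_x_at, differed by -0.000215 (adjusted p = 0.235). Its suffix marks probes that may cross-hybridise, and Cxcl1 and Cxcl2 are close relatives, so signal shared between them cannot be told apart there. The brightest, 1457644_s_at, has the suffix for probes that may match more than 1 transcript, so shared signal is a limit for it too.

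Cxcl2 read 8.761, 8.756 and 8.769 in WT tumours 1, 2 and 3 and 8.753, 8.736 and 8.745 in TNKO tumours. WT tumour 3 was again highest and TNKO tumour 2 lowest, and the gap between groups was 0.0035. The difference was -0.0173 (SE 0.00554, 95% interval -0.0320 to -0.00268, adjusted p = 0.2), or -2.39 residual SDs. Cxcl5 read 7.956, 7.954 and 7.967 in WT and 7.954, 7.943 and 7.952 in TNKO tumours. WT tumour 2 and TNKO tumour 1 nearly met, at a gap of 0.000201, so the groups were barely apart. The difference was -0.00948 (SE 0.00475, 95% interval -0.0220 to 0.00307, adjusted p = 0.351), or -1.52 residual SDs. All 5 probe sets of the 3 genes kept a lower mean in TNKO hosts under quantile normalization. That scaling itself moved the median of all differences down to -0.000538. The 5 probe sets also kept a lower mean with medians subtracted and with each tumour left out, but these last checks could not turn the sign. The groups were apart in all 5, and subtracting medians lowered every difference. In the brightest probe sets the difference without WT tumour 3 was -0.00812 for Cxcl1, -0.014 for Cxcl2 and -0.00567 for Cxcl5. Without TNKO tumour 2 it was -0.0079, -0.0132 and -0.00625, so for Cxcl5 each of these 2 tumours moved the value by over 1.5 times.

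The 5 probe sets put the 6 tumours in the same order, from WT tumour 3 over WT 1, WT 2, TNKO 1 and TNKO 3 down to TNKO tumour 2. That order, 1 of 720 possible and singled out after the values were seen, was shared by 278 of all 45037 probe sets (0.617%). Among the 249 probe sets that spanned more than 0.01 it was shared by 5, of which 4 were Cxcl1 (2 probe sets), Cxcl2 and Cxcl5. Pearson's r between these 5 probe sets ran from 0.95 to 0.99 over the 6 arrays, which share their RNA samples and the difference between hosts. Of those 249 wide probe sets, 15 had all TNKO tumours below all WT tumours and 48 had them above. Over all probe sets the shares were 13.8% below and 14.2% above. The same 4 probe sets were among the 15. On the chromosome Cxcl1 and Cxcl2 are direct neighbours, and Cxcl5, Ppbp, Pf4, Cxcl3 and Cxcl15 precede them in the gene order of GRCm38.p6.

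**Figure D3:**
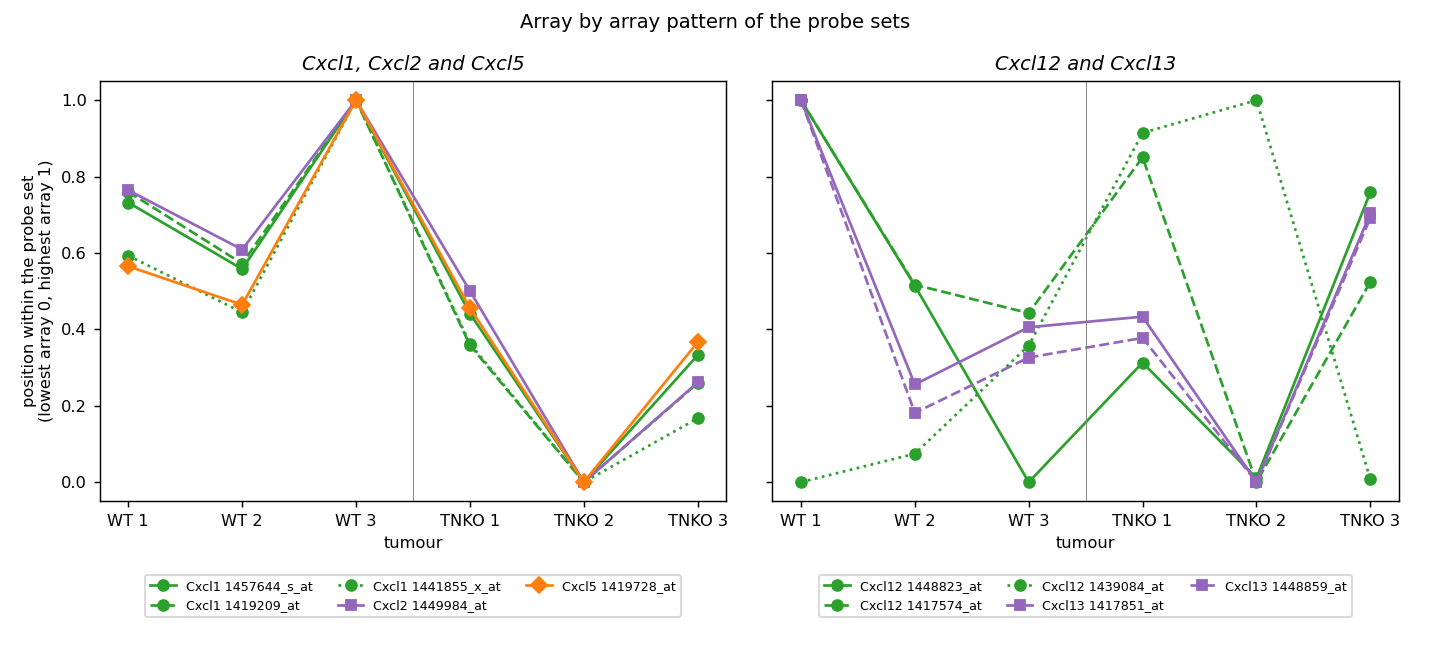
Position of each tumour between the lowest array (0) and the highest array (1) of a probe set, for Cxcl1, Cxcl2 and Cxcl5 on the left and Cxcl12 and Cxcl13 on the right; colours are genes and line styles are probe sets. The 5 probe sets on the left run together with WT tumour 3 highest and TNKO tumour 2 lowest, the 2 of Cxcl13 run together with WT tumour 1 highest, and the 3 of Cxcl12 do not.

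The promoters of Cxcl1 and Cxcl2 are shown because both genes put the tumours in the same order and both windows hold letters of the NF-kappaB motif. RefSeq windows of GRCm38.p6, from 250 bases before to 50 after the start, were found for 7 of the 10 genes, not for Cxcl5, Cxcl16 or Cxcl17. The 250 bases before the start are printed 5′ to 3′ on the strand of the gene, at chr5:90890995-90891244 for Cxcl1 and chr5:90903649-90903898 for Cxcl2, both on the + strand. Capitals mark matches on either strand to the kappaB form GGNNTTTCC or the hypoxia response core ACGTG.
Cxcl1: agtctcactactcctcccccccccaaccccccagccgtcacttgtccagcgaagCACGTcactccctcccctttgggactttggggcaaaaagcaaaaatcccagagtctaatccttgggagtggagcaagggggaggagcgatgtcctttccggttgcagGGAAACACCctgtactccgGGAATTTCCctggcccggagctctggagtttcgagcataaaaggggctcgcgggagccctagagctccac
Cxcl2: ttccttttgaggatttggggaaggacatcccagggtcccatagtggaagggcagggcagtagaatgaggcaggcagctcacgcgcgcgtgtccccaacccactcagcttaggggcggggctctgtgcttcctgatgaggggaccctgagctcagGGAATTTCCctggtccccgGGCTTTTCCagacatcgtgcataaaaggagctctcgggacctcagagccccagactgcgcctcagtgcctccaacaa
Each window held 2 matches to the kappaB form, starting at -89 and -70 from the start of Cxcl1 and at -96 and -77 from that of Cxcl2. The match GGAATTTCC occurred in both, and the 2 motifs did not overlap. Of all 32851 promoter windows of this length 5.82% held the form, and of the other 5 windows of the CXC genes none did. A stricter kappaB form, with 1 more G in front, was in 1.63% of all windows and also matched 2 times in each of both genes. An interferon response form was in 3.44% of all windows and matched in Cxcl14, at -172. The core ACGTG, in 19.6% of all windows, was found once, at -196 of Cxcl1 on the opposite strand. The matches describe these letters and were not tested as binding sites.

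Cxcl13, the attractant of B cells, also spanned more than 0.01 in both probe sets, with overlapping groups. The brightest probe set, 1417851_at, read 8.611, 8.586 and 8.591 in WT tumours 1, 2 and 3 and 8.592, 8.578 and 8.601 in TNKO tumours. WT tumour 1 was the highest, TNKO tumour 3 came next and TNKO tumour 2 was the lowest, so the groups overlapped over most of their range. The difference was -0.00565 (SE 0.00924, 95% interval -0.0301 to 0.0188, adjusted p = 0.788), or -0.47 residual SDs, and it turned positive without WT tumour 1 (0.00157) or TNKO tumour 2 (0.000478). The second probe set, 1448859_at, gave -0.00386 (adjusted p = 0.837), put the tumours in the same order and correlated with the first at r = 0.995 over the 6 arrays. That order, also singled out after the values were seen, was shared by 30 of all probe sets (0.0666%). The B cell markers measured, 6 of 7, were dim, 4 of them below the median level. All 6 had a slightly higher mean in TNKO hosts as deposited and a lower one under both scalings, and limma gave 0 an unadjusted p under 0.05. Pax5 differed by 2.2e-06 (adjusted p = 0.348), and the summed level was 39.07 in every tumour. None of them was listed at 0, since the lowest value of the table is 5.20. Their part in the spread of Cxcl13 was not tested.

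Cxcl14, a chemokine of skin and other epithelia, had a higher mean in TNKO hosts in both probe sets as deposited. The brighter, 1418457_at, read 6.7456, 6.7447 and 6.7438 in WT and 6.7470, 6.7454 and 6.7464 in TNKO tumours. WT tumour 1 lay above TNKO tumour 2, so the groups overlapped. The difference was 0.00152 (SE 0.000641, adjusted p = 0.283), or 1.81 residual SDs, and stayed positive with quantile normalization (0.000951) and medians subtracted (0.00076). The dimmer, 1418456_a_at, lay in millionths of a log2 unit at -11.1, -26.5 and -23.6 in WT and at 22.9, 16.4 and 21.9 in TNKO tumours. All 3 TNKO tumours stood above all WT tumours by at least 2.75e-05. Its difference of 4.08e-05 (SE 4.81e-06, adjusted p = 0.0702), or 6.48 residual SDs, turned negative with quantile normalization (-0.000855) and with medians subtracted (-0.000723). It passed (adjusted p = 0.0493) when only the 22518 probe sets above the median level were tested. The hybridisation controls, spiked in rather than taken from the tumour, had a higher mean on TNKO arrays in 18 of 18 cases, by 1.73e-07 to 6.14e-05, a range that holds this difference; their part in it was not tested. Of the 9 hair and epidermis genes 5 had a higher and 4 a lower mean. Their summed level was 61.74 to 61.82 in WT tumours and 61.72 to 72.00 in TNKO tumours. The top sum was that of TNKO tumour 3, where Krtap8-1 (12.60) and Krt25 (9.21) stood high, and 4 of the 9 genes were highest in WT tumour 3. For that count the share of all genes was not taken. The part of hair and skin in the Cxcl14 values was not tested.

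Cxcl16, made as a transmembrane ligand of CXCR6, differed by -3.46e-06 (adjusted p = 0.677) and -1.65e-06 (adjusted p = 0.647) in its 2 probe sets. In the brighter the tumours spanned 1.28e-05 log2 units, with WT tumour 1 highest and TNKO tumour 1 lowest, and the groups overlapped. Cxcl17, a chemokine of mucosal epithelia, was read by 1 dim probe set, at 6.58. In millionths it lay at -0.726, -0.493 and -1.21 in WT and at 0.720, 1.71 and 0.00167 in TNKO tumours, so the groups stood apart by 4.95e-07. The difference of 1.62e-06 (adjusted p = 0.213) was smaller than the median span of all probe sets, and turned negative under both scalings (-0.000896 and -0.000762). It too lies inside the range of the hybridisation controls, whose part in it was not tested.

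**Figure D4:**
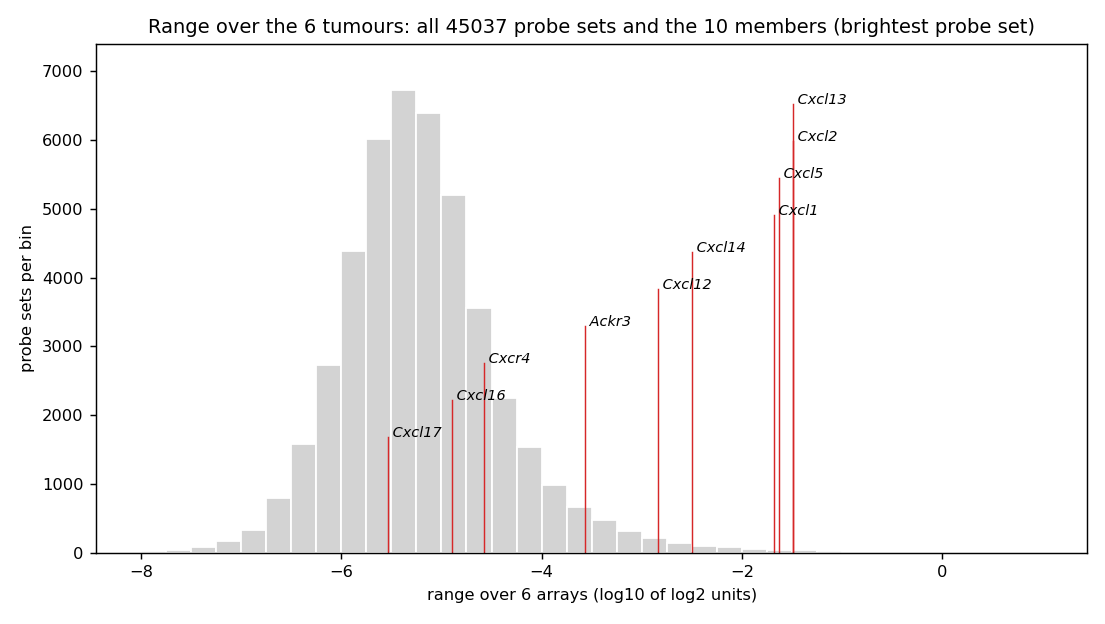
Span over the 6 tumours for all 45037 probe sets (grey bars, probe sets per bin, x axis the log10 of log2 units) and for the brightest probe set of each of the 10 genes (red lines, whose heights only separate the names). Cxcl1, Cxcl2, Cxcl5 and Cxcl13 lie at the far right, above a span of 0.01, while Cxcl16 and Cxcl17 lie within the bulk.

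The 10 genes thus differed from each other in how far they varied at all. A span above 0.01 was seen in 6 of the 17 CXC probe sets, against 0.553% of all: 2 of Cxcl1, those of Cxcl2 and Cxcl5, and both of Cxcl13. All 17 lay above the median level of all probe sets, and the share among probe sets of like level was not taken. Cxcl14 (0.00314) and Cxcl12 (0.00144) followed in their brightest probe sets, Ackr3 spanned 0.000274 and Cxcr4 2.67e-05. Probe sets of 1 gene share their target and are not independent.

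Of the other CXC ligands and receptors, 11 of 12 were measured, 7 with a lower and 4 with a higher mean in TNKO hosts, and 0 passed adjustment, against 0.121% of all genes. An unadjusted p under 0.05 was reached by 2 of the 11, against 18.4% of all genes, and their median difference was -0.31 residual SDs. The groups stood apart in 3 with TNKO lower (11.1% of all genes) and 2 with TNKO higher (15% of all genes). Cxcl10, an interferon-induced ligand of CXCR3, read 8.8949, 8.8942 and 8.8940 in WT and 8.8926, 8.8926 and 8.8936 in TNKO tumours. The groups were apart, and the difference of -0.00145 (SE 0.000392) had an adjusted p of 0.162. Pf4, a platelet chemokine in the same gene cluster as Cxcl1, went the other way, at 7.9444, 7.9444 and 7.9441 in WT and 7.9462, 7.9457 and 7.9448 in TNKO tumours (difference 0.0013, adjusted p = 0.176). Cxcl3, the neutrophil attractant nearest in kind to Cxcl1 and Cxcl2, differed by -0.000991 (adjusted p = 0.276) with the groups apart and the same highest and lowest tumour as theirs. Cxcr3 differed by 9.78e-06 (adjusted p = 0.26). Cxcr6, the receptor of CXCL16, stood at 6.98 with all TNKO tumours below all WT tumours (difference -6.94e-05, or -1.61 residual SDs, adjusted p = 0.328). The other 2 receptors overlapped between hosts: Cxcr2, the receptor of Cxcl1, Cxcl2 and Cxcl5, was at 6.27 with a difference of 3.9e-06 (adjusted p = 0.42), and Cxcr5, the receptor of Cxcl13, was at 5.82 with a difference of 3.07e-08 (adjusted p = 0.97).

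Among genes that induce these chemokines or belong to NF-kappaB signalling, 17 of 18 were measured, 10 lower and 7 higher, with 0 past adjustment, 2 at an unadjusted p under 0.05 (18.4% of all genes) and a median of -0.42 residual SDs. Nfkbia, an inhibitor of NF-kappaB that NF-kappaB itself induces, differed by -1.07e-05 (adjusted p = 0.102), with all TNKO tumours lower and the tumours in the same order as for Cxcl1, Cxcl2 and Cxcl5. Ptgs2, the inducible cyclooxygenase, read 10.7754, 10.7759 and 10.7776 in WT and 10.7749, 10.7735 and 10.7742 in TNKO tumours (difference -0.00212, adjusted p = 0.216). Lcn2, a neutrophil and epithelial lipocalin, went the other way (0.00829, adjusted p = 0.343), as did Tnf (6.69e-06, adjusted p = 0.307). Of the 17, 6 had their highest value in WT tumour 3 and 6 their lowest in TNKO tumour 2. The shares of all genes that did so were not taken, so these counts have no background.

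Signalling genes of chemokine receptors were split, 14 lower and 12 higher of 26 measured, with 3 at an unadjusted p under 0.05 (18.4% of all genes) and a median of -0.07 residual SDs. Gnb1, a G protein beta subunit, differed by -4.33e-06 (adjusted p = 0.131), Grk5, a receptor kinase, by -3.77e-05 (adjusted p = 0.189), Plcb2 by 1.24e-06 (adjusted p = 0.192) and Elmo1 by 3.94e-06 (adjusted p = 0.257). Of the other ligands and partners of CXCR4 and ACKR3, 4 were lower and 4 higher of 8 measured. Cd44, a hyaluronan receptor, differed by -4.19e-05 (-7.70 residual SDs, adjusted p = 0.0607). Mif, a cytokine that binds CXCR4, differed by -1.52e-05 (adjusted p = 0.303) with the tumours in the order seen for Cxcl1, Cd4 by 7.36e-06 (adjusted p = 0.244) and Adm by -0.000396 (adjusted p = 0.322). Enzymes that cut CXC ligands had a higher mean in 9 of 11 as deposited, with a median of 0.95 residual SDs. With quantile normalization or medians subtracted, 9 of the 11 were lower. Mmp8, the neutrophil collagenase, differed by 1.81e-05 (adjusted p = 0.0702), Elane by 3.47e-06 (adjusted p = 0.132), Mmp2 by 0.00233 (adjusted p = 0.379) and Dpp4, which inactivates CXCL12, by 0.000237 (adjusted p = 0.381).

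Neutrophil markers had the opposite sign to the neutrophil attractants as deposited, and mostly the same sign after scaling. As deposited 9 of 9 measured had a higher mean in TNKO hosts (57.6% of all genes), 3 at an unadjusted p under 0.05 (18.4% of all genes) and 0 past adjustment (0.121%), and 2 of 9 remained higher with quantile normalization and 1 with medians subtracted. Their summed level was 60.3561 to 60.3569 in WT and 60.3565 to 60.3597 in TNKO tumours, and 5 of the 9 lay below the median level. Csf3r, the receptor of G-CSF, differed by 3.46e-05 (adjusted p = 0.15) and Ltf, lactoferrin of neutrophil granules, by 6.56e-06 (adjusted p = 0.305). Fibroblast markers, a known source of Cxcl12, were higher in 7 of 9 as deposited and lower in 7 of 9 under both scalings. Their summed levels overlapped, at 97.9907 to 98.0089 in WT and 98.0063 to 98.0173 in TNKO tumours. Endothelial markers were higher in 8 of 8 as deposited (lower in 7 and 8 under the scalings), at 55.6927 to 55.6940 in WT and 55.6942 to 55.6954 in TNKO tumours. Macrophage markers were higher in 6 of 7 as deposited (lower in 6 under both scalings) and T cell markers in 5 of 6 (lower in 6 under both). Adipocyte markers were higher in 5 of 5, most in TNKO tumours 1 and 2, and skeletal muscle markers lower in 8 of 8, lowest in these 2 tumours. They ran from 0.0013 (Lep) to 0.952 (Adipoq, adjusted p = 0.321) for the adipocyte and from -0.00206 (Des) to -1.65 (Myh1, adjusted p = 0.398) for the muscle genes, in log2 units. Under both scalings the pathway lists were also mostly lower: 10 of 11 other CXC genes, 16 of 17 inducers, 25 of 26 signalling genes and 8 of 8 partners. The part of any of these cell types in the CXC values was not tested.

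The genes most like Cxcl12 over the 6 arrays, among 1253 that spanned at least 0.1 times its range, were Trbv1 (r = 0.97), Ccn3 (0.96), Timp3 (0.96), Ccr7 (0.95) and the CXC ligand Cxcl9 (0.94). For Cxcr4 they were Mtfr1l (0.99), Ptpn21 (0.99), 1500004A13Rik (0.99), Phlda1 (0.98) and Tent4a (0.98), among 12588. The arrays share their normalization and the difference between hosts, and with 6 points r was above 0.95 for 3 and 23 genes.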

How the data were processed

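RNA of 3 tumours from WT and 3 from TNKO hosts was measured on 1-colour Affymetrix arrays. The authors deposited 1 normalized log2 value per probe set and array; base 2 was assumed from the range of the values, up to 13.95. The submitters' processing notes name R 2.7.2, and how values were summarized or normalized is not given in the sources used here. No per-sample column was left unused. Between 21 and 43 values were identical between the arrays of a pair, so none was taken as a copy. The number of arrays limits the precision.

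After removal of 64 control probe sets, 45037 remained, of which 34945 had 1 symbol in the platform annotation, 932 several and 9160 none; matching gene identifiers to a RefSeq gene table changed 0 symbols. The brightest probe set (highest mean) stood for a gene. TNKO minus WT was fitted with limma 3.58.1 in R 4.3.3 (lmFit, eBayes, two-sided, Benjamini-Hochberg over all probe sets, threshold 0.05) on the values as deposited, and the procedure was tested on simulated data. No batch is labelled. Replicate numbers did not pair tumours: the deviations of same-numbered tumours correlated at 0.03, -0.02 and 0.01.

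Members and lists were chosen with earlier results of these data known. Named were all members, Tnc, up to 4 genes of each pathway list with the smallest unadjusted p, and 5 genes most like Cxcl12 and Cxcr4. Every other gene named (Cxcr2, Cxcr5, Cxcr6 and the cell type markers) and the array orders were singled out after their values were seen. The kappaB form marked in capitals is 1 letter shorter than the planned one, a choice made after the matches were seen. Of 155 listed genes 145 were matched. Tried as alternatives were a trended, a robust and an unmoderated fit, quantile normalization, arrays centred on their medians, only probe sets above the median level, a replicate block, the mean over a gene's probe sets and leaving out each array; directions of lists under each scaling were added after the data were examined.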

Additional observations from a re-analysis of the deposited data

How the results depend on the processing

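Over all probe sets the count of 79 calls (19 higher, 60 lower) was 0 with quantile normalization, 0 with the replicate block, 68 with medians subtracted (58 higher, 10 lower, 0 of them shared with the 79), and 285 when only probe sets above the median level were tested. With medians subtracted, p followed the size of the difference alone in the brightest CXC probe sets, so the 68 and the 79 are not like counts. Without 1 tumour the count of calls ran from 0 to 73: 0 without WT tumour 1 or WT tumour 3, 1, 4 and 6 without TNKO tumours 1, 2 and 3, and 73 without WT tumour 2. Where limma called 0, an unadjusted p under 0.05 was reached by 591 probe sets with quantile normalization, 7816 with the block, and 7144 and 6807 without WT tumours 1 and 3. Of the 17 CXC probe sets 1 passed when only the brighter probe sets were tested, the dim one of Cxcl14, and 0 under each other alternative counted over all 17. The unmoderated fit was read only for each gene's brightest probe set, and the mean over probe sets only per gene. The Cxcl12 difference turned positive without WT tumour 1 or TNKO tumour 2 and ran from -0.00057 to 0.000149 over the tumours left out; it was -0.00109 with quantile normalization (unadjusted p = 0.0343) and -0.000971 with medians subtracted. That of Cxcl13 turned in the same fits (0.00157 and 0.000478; lowest -0.0109), and that of Cxcl17 with quantile normalization (-0.000896) and with medians subtracted (-0.000762); the cause was not tested, though both scalings lowered the differences of all probe sets as a whole. The brightest probe sets of the other 7 genes kept their direction under all 14 alternatives. The trended, robust, unmoderated and block fits and the test of only the brighter probe sets leave the difference itself unchanged. These could not turn a direction, nor could subtracting medians where the difference was already negative. Leaving out a tumour could not turn it for Cxcl1, Cxcl2, Cxcl5 and Ackr3, whose groups stood apart. The mean over a gene's probe sets repeats the same value where there is only 1. For Cxcl1 it could not turn the direction, since every probe set of the gene was lower. Over the 14 alternatives the adjusted p ran from 0.151 to 0.99 for Cxcl1, 0.165 to 0.99 for Cxcl2, 0.31 to 0.99 for Cxcl5, 0.217 to 0.99 for Ackr3 and 0.552 to 0.993 for Cxcr4. Each 0.99 came from the fit with medians subtracted, which did not weigh a probe set's own spread. The block changed no call of a CXC probe set. How far signal stood above background is not known for any probe set.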
